A study of Mus musculus with 14 samples.

Results

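Carmn, Bvht (braveheart), Mir143 and Mir145a are 4 neighbouring genes of 1 mouse locus, chosen by name as the annotated RNA genes of the Carmn locus. They are 4 of the 40481 genes counted in the bulk libraries, all 4 passed the filter on low counts, and 2 of them, Carmn and Bvht, are features of the matrices of nuclei. The samples are the muscularis, the muscle coat of the gut wall, of C57BL/6 mice. Bulk RNA-seq covered colon and jejunum with 3 libraries per genotype in each (12 in all), and single nuclei were taken from colon with 1 library per genotype. The genotype labels are "Carmn iKO" and "WT mTmG", where mTmG is the name of a red-to-green fluorescent reporter of Cre recombination. The sources used here do not give how Carmn was deleted, in which cells, which stretch was removed, how old the animals were or whether they were treated. Nor do they give whether libraries labelled iKO carry the reporter or whether libraries of a group came from separate animals, so p-values measure only the spread between these libraries, which may be technical.

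Carmn is a long noncoding RNA of smooth muscle cells and of heart precursor cells, and it is transcribed from the strand that also holds the hairpins of miR-143 and miR-145. Its RNA is known to bind myocardin, the coactivator that, with serum response factor, switches on the contractile genes of smooth muscle. Mir143 and Mir145a encode these hairpins, whose microRNAs are abundant in smooth muscle, where they repress factors linked to the proliferating state. Bvht is a long noncoding RNA described in heart precursor cells and is transcribed from the opposite strand. The results are given in the order of the deleted gene, the gene on the opposite strand, the hairpins downstream, and then the coding neighbours and the pathway.

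In the GENCODE M21 annotation of GRCm38, Carmn (a lincRNA, minus strand, chromosome 18) spans chr18:61649625-61665537 and has 2304 bp of exons. Mir143 lies on the same strand at chr18:61649196-61649258, 366 bp beyond the annotated end of Carmn, and Mir145a at chr18:61647825-61647894, 1730 bp beyond it. Bvht lies on the plus strand at chr18:61639542-61647472, with 699 bp of exons, 2152 bp from the end of Carmn. RefSeq draws Carmn longer, at 61645878 to 61665538, so that in its model both hairpins lie inside the Carmn transcription unit and 1595 bp of the Bvht span lies opposite to it. The deposited counts follow Ensembl gene identifiers. The sources used here do not give whether the counting used strand, so reads from Bvht and from a long Carmn transcript opposite to it cannot be told apart. The hairpin genes are 63 and 70 bp long. Their values are counts of RNA-seq reads placed on the hairpins and do not measure the mature microRNAs.

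The deleted gene was examined first. In colon, Carmn stood at 461, 304 and 718 CPM (counts scaled to 1e+06 counts of TMM-adjusted library size) in the libraries labelled iKO (tags m1, t4 and t6) and at 252, 171 and 351 CPM in the WT libraries (t1, t6 and t7). The colon groups overlap, because the iKO library t4 lies below the WT library t7. In jejunum, Carmn was at 996, 817 and 909 CPM in the libraries labelled iKO (m1, t1 and t4) and at 240, 206 and 326 CPM in WT (t1, t6 and t7). Every jejunum library labelled iKO lies above every WT library there. Colon means were 494 ± 209 (iKO) and 258 ± 90.2 CPM (WT), and jejunum means were 907.5 (iKO) and 257 CPM (WT) (SD, n = 3), which is 1.91 and 3.53 times the WT mean. The whole-gene count of Carmn thus goes against the label in the bulk libraries, and the groups are called by their labels throughout. Whether the counted exons lie in the deleted stretch cannot be told from the sources used here.

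With edgeR's quasi-likelihood test over 20886 genes, the Carmn difference (iKO minus WT) was 0.94 on the log2 scale in colon (SE 0.34, Benjamini-Hochberg adjusted p = 0.234) and 1.82 in jejunum (SE 0.34, adjusted p = 0.0646). Neither passed the threshold of 0.05. DESeq2 put the jejunum difference past it (adjusted p = 7.89e-05) and the colon one not (0.0987). An exact two-sided permutation test of CPM gave p = 0.2 in colon and p = 0.1 in jejunum, the smallest that 3 against 3 libraries allow. Without the colon library t6 labelled iKO, the highest of its group, the colon difference was 0.59, and without the colon WT library t7 it was 1.245. The jejunum difference passed in edgeR without the colon iKO library t4 (1.82, adjusted p = 0.0263) or t6 (1.81, adjusted p = 0.0453). Of the 12 edgeR fits that left out 1 library, the other 10 did not pass, with adjusted p up to 0.294. It also passed with limma voom (1.85, adjusted p = 0.0465) and in edgeR with no filter on low counts (1.80, adjusted p = 0.0370). In bulk tissue, fewer cells of a type and less RNA per cell cannot be told apart, for Carmn as for the other genes.

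Bvht moved the other way. It was at 8.01, 4.79 and 6.28 CPM in the colon libraries labelled iKO and at 45.8, 27.5 and 67.4 CPM in colon WT. In jejunum the libraries labelled iKO held 5.03, 6.90 and 8.08 CPM and the WT libraries 42.8, 39.0 and 54.6 CPM. All 6 libraries labelled iKO lie below all 6 WT libraries, with a wide gap between 8.08 CPM, the highest under the iKO label, and 27.5 CPM, the lowest in WT. The mean was 7.38 times lower in colon and 6.82 times lower in jejunum. In edgeR's fit Bvht fell by 2.88 on the log2 scale in colon (SE 0.34, adjusted p = 0.00738) and by 2.76 in jejunum (SE 0.33, adjusted p = 0.0131).

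Bvht was the 1 gene of the 4 past the edgeR threshold in either tissue. Over all genes tested, 0.388% passed in colon (0.273% as lower) and 0.215% in jejunum (0.091% as lower). The call ended when edgeR was fitted on the 6 colon libraries alone (-2.86, adjusted p = 0.117). It also ended in colon without the iKO library t6 (-2.85, adjusted p = 0.0518), and in jejunum without the iKO library t4 (-2.93, adjusted p = 0.0510) or the WT library t7 (-2.62, adjusted p = 0.0532). DESeq2 gave adjusted p = 3.31e-13 and 3.87e-12.

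The hairpin genes were low in the libraries labelled iKO as well. Mir143 stood at 3.06, 1.46 and 3.29 CPM in colon iKO and at 9.61, 7.42 and 15.2 CPM in colon WT. In jejunum it was at 0.355, 1.13 and 1.86 CPM under the iKO label and at 3.94, 4.84 and 10.9 CPM in WT. Groups did not overlap in either tissue, and the means differed 4.13 and 5.90 times. Mir145a was at 1.78, 0.624 and 2.28 CPM in colon iKO and at 7.23, 5.66 and 15.6 CPM in colon WT. Its jejunum values were 0.305, 1.48 and 2.06 CPM under the iKO label and 8.62, 5.86 and 11.8 CPM in WT. These groups did not overlap either, with means 6.09 and 6.83 times apart. For Bvht and both hairpin genes the exact permutation test gave p = 0.1 in each tissue, the smallest possible.

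The depth behind the hairpins is thin. The libraries held 24254905 to 44315104 gene counts, which gave as few as 7 counts of Mir143 and 6 of Mir145a, both in the jejunum iKO library m1, and 42 and 18 in the colon iKO library t4. edgeR gave Mir143 log2 differences of -2.04 in colon (SE 0.58, adjusted p = 0.152) and -2.53 in jejunum (SE 0.60, adjusted p = 0.114). For Mir145a it gave -2.59 in colon (SE 0.66, adjusted p = 0.124) and -2.74 in jejunum (SE 0.67, adjusted p = 0.125). None passed in edgeR, while DESeq2 put all 4 past its threshold (adjusted p = 0.0114 and 0.000985 for Mir143, 0.00234 and 0.00122 for Mir145a), with 5.01% of genes called in colon and 3.95% in jejunum. Groups without overlap were 19.2% of all tested genes in colon and 22.2% in jejunum. The 4 genes had 3 such contrasts in colon, all lower under the iKO label (10.4% of all genes were lower and 8.79% higher in this way). In jejunum all 4 had one, Carmn as higher (11%) and the other 3 as lower (11.2%).

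**Figure D1:**
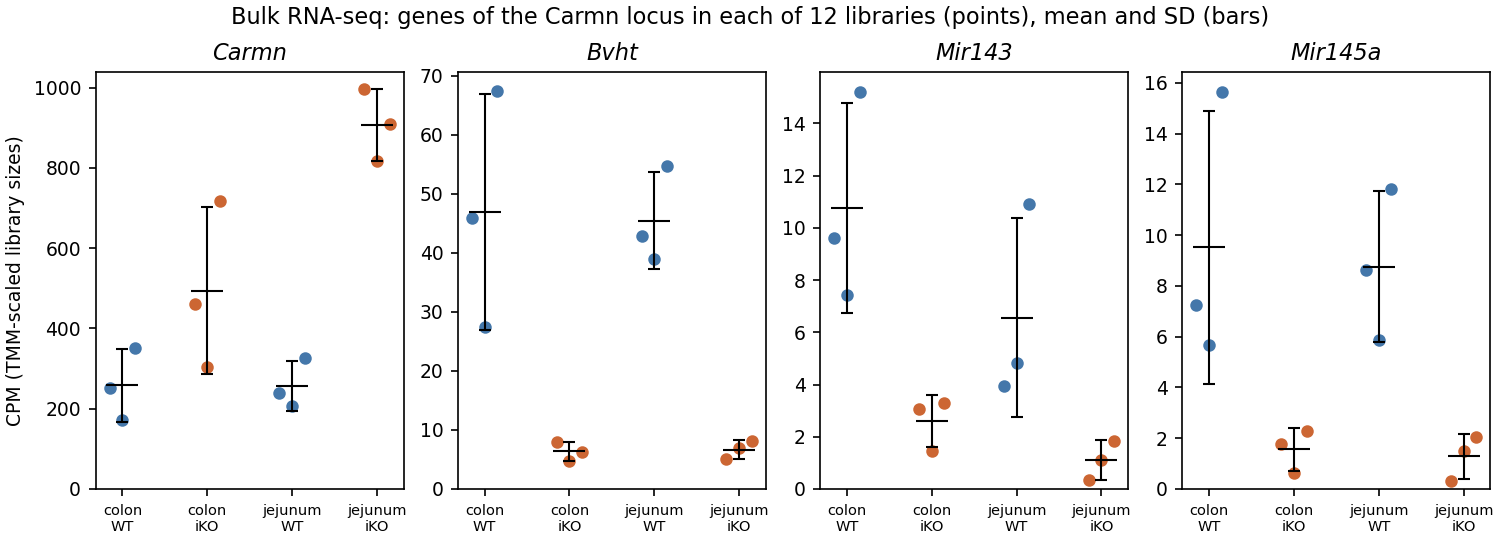
CPM of Carmn, Bvht, Mir143 and Mir145a (TMM-scaled) in each of the 12 bulk libraries on linear axes from 0, by tissue and label, with points for libraries and bars for the group mean and SD. Carmn is higher under the iKO label in jejunum and overlaps in colon, whereas Bvht and both hairpin genes are lower under that label in every library.

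Because the 4 genes share a locus, each library was also read as a ratio of counts within it. In WT colon there were 18.2, 16.0 and 19.2 Bvht counts per 100 Carmn counts, and in WT jejunum 17.8, 18.9 and 16.7. The WT ratio was thus nearly constant, at 17.8 ± 1.61 and 17.8 ± 1.09 (SD, n = 3), although Carmn itself varied from 171 to 351 CPM between those libraries. Under the iKO label the ratio was 1.74, 1.58 and 0.875 in colon and 0.505, 0.844 and 0.889 in jejunum, which is 12.8 and 23.9 times lower in the mean. For Mir143 it was 4.16 ± 0.294 in WT against 0.534 ± 0.113 counts per 100 Carmn counts under the iKO label in colon and 2.45 ± 0.858 against 0.126 ± 0.0849 in jejunum. For Mir145a the ratio was 3.54 ± 0.816 against 0.303 ± 0.0911 in colon and 3.35 ± 0.437 against 0.146 ± 0.103 in jejunum. Groups did not overlap for any of these ratios, each with an exact permutation p = 0.1, the smallest possible. Bvht and the hairpin genes alone were already lower without overlap and the Carmn means were higher, so these ratios are no separate evidence.

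Carmn was also set against Myh11, the smooth muscle myosin heavy chain, a marker of smooth muscle. Colon libraries labelled iKO held 37.5, 53.2 and 58.4 Carmn counts per 1000 Myh11 counts and WT libraries 16.9, 12.8 and 17.8. In jejunum the values were 57.4, 48.7 and 59.8 against 17.8, 13.1 and 20.5. On this scale the colon groups no longer overlapped, and the colon and jejunum differences were of like size, at 3.13 and 3.23 times the WT mean (exact permutation p = 0.1 in each). Bvht per Myh11 count was 4.28 times lower in colon and 7.36 times lower in jejunum. This scale was chosen after the data had been seen, and Myh11 itself moved with the label in colon. It was at 12303, 5711 and 12294 CPM in colon iKO and at 14849, 13412 and 19701 CPM in colon WT, and its jejunum groups overlapped. As Myh11 is the divisor, its lower colon iKO values raise the colon ratios.

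**Figure D2:**
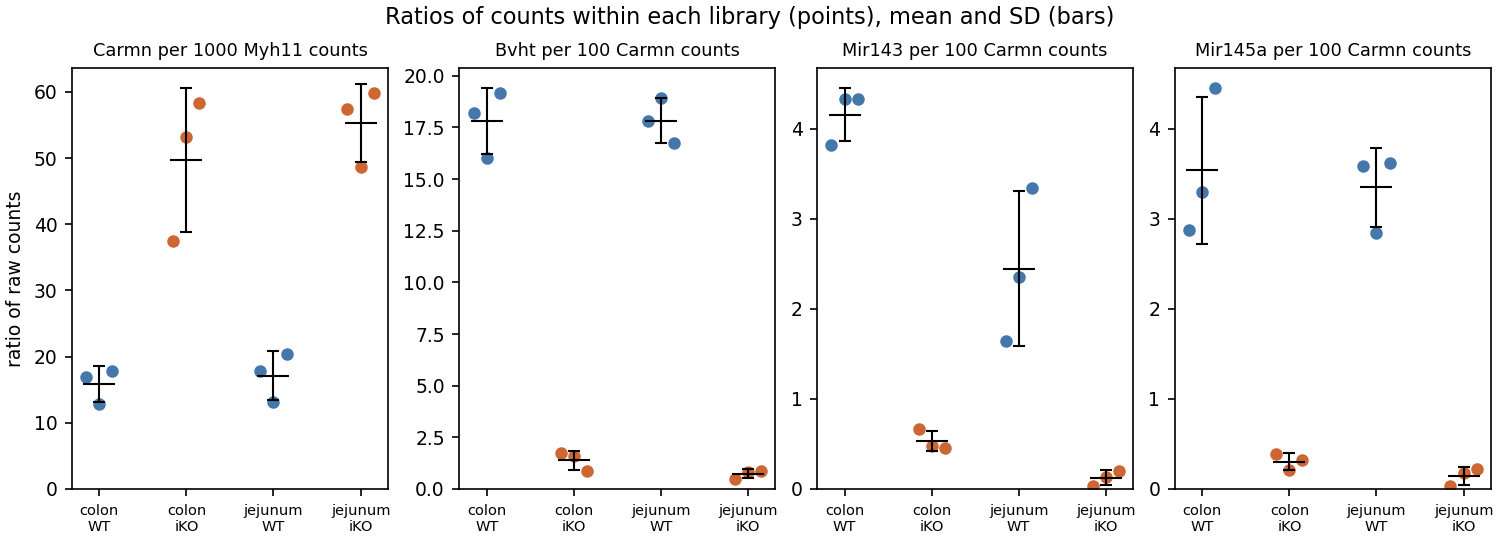
Counts of Bvht, Mir143 and Mir145a per 100 Carmn counts and of Carmn per 1000 Myh11 counts in each bulk library, by tissue and label, with points for libraries and bars for the group mean and SD. The WT ratios of Bvht to Carmn lie between 16.0 and 19.2 in both tissues, and all ratios to Carmn are lower under the iKO label without overlap.

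Per kilobase of exon, the 4 genes stood in a narrow range in WT, with Carmn at 112 CPM per kb in either tissue, Bvht at 67.1 and 65.0, Mir143 at 171 and 104, and Mir145a at 136 and 125 in colon and jejunum. Under the iKO label Carmn led the order in both tissues, at 215 and 394 CPM per kb, while Bvht (9.10 and 9.54), Mir143 (41.3 and 17.7) and Mir145a (22.3 and 18.3) lay below it. Length scaling is rough for genes as short as the hairpins. Within the 4 groups, with group means removed, Mir143 and Mir145a varied together over the 12 libraries (Pearson r = 0.92), as did Bvht with Mir143 (0.79) and with Mir145a (0.81), and Carmn less with Bvht (0.66), Mir143 (0.52) and Mir145a (0.56). Without removing group means the last 3 became -0.71, -0.69 and -0.63. These correlations describe 12 libraries that share a depth and a smooth muscle content each.

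Between the tissues, none of the 4 genes differed by the edgeR test in WT (all adjusted p at least 0.679, with 1.56% of all genes called). Carmn differed by 0.00, Bvht by 0.05, Mir143 by 0.71 and Mir145a by 0.12 on the log2 scale (colon minus jejunum). The Mir143 value was 0.32 without the colon WT library t7 and 1.23 without the jejunum WT library t7, and 0.39 and 0.47 without the jejunum WT libraries t1 and t6. Under the iKO label Carmn was lower in all 3 colon libraries than in any jejunum library, with a log2 difference of -0.88 (9.64% of all genes do not overlap in this direction; edgeR unadjusted p = 0.0231, adjusted p = 0.209, 1.29% called), and Mir143 differed by 1.20 (adjusted p = 0.306). Bvht and Mir145a differed there by -0.07 and 0.26. The difference between the colon and the jejunum effect was tested itself and did not pass for any of the 4. It was -0.88 for Carmn (SE 0.47, edgeR unadjusted p = 0.087), -0.12 for Bvht, 0.49 for Mir143 and 0.14 for Mir145a, with adjusted p of at least 0.94 each. For Carmn it was -1.22 without the colon iKO library t6 (unadjusted p = 0.0177) and -0.56 without the colon WT library t7. At this test edgeR called 0 genes (0%), with 869 at an unadjusted p under 0.05 (4.16%) and 38 called by DESeq2 (0.217%).

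Some library-wide values moved with the labels. Smooth muscle markers, which check for muscle but do not tell colon from jejunum, summed to 51782 to 75568 CPM in colon WT, 34878 to 47530 in colon iKO, 48314 to 53351 in jejunum WT and 49574 to 93637 in jejunum iKO. The colon sums do not overlap. The colon iKO library t4, which has the lowest Carmn of its group, has the highest fibroblast marker sum (11234 CPM, the other 11 libraries at 2535 to 6603 CPM), and the jejunum iKO library m1, which has the highest Carmn and the fewest hairpin counts, has the highest smooth muscle sum. Markers of pericytes and vascular muscle, which can also hold Carmn and the hairpins, summed to 2171 to 3505 CPM in jejunum iKO against 4095 to 5487 CPM in jejunum WT and overlapped in colon. Macrophage markers summed to 474.5 to 1156 CPM in jejunum iKO against 146 to 326 CPM in jejunum WT. Skeletal muscle markers summed to 18.6 to 27.0 CPM (iKO) against 62.5 to 83.9 CPM (WT) in colon and to 40.5 to 91.2 against 114 to 128 CPM in jejunum. The part of these values in the differences above was not tested.

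The genes whose bulk pattern was most like Bvht over the 12 libraries, by Pearson r of log2 CPM among 14277 genes, were Six5 (0.97), Setd7 (0.96), Ncald (0.96), Nacc2 (0.95) and Supt7l (0.95). Six5, a homeobox factor, also passed the edgeR test in both tissues, at -1.80 in colon (adjusted p = 0.0176) and -1.95 in jejunum (adjusted p = 0.0131). For Carmn they were Htra2 (0.94), a mitochondrial protease, then Plb1 (0.92), Gm14066 (0.91), Tmem130 (0.90) and Ppp2r3a (0.89). With group means removed these correlations were 0.32 to 0.83, so part of the likeness is the shared split by label.

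Other genes of the locus and of the pathway were read from 4 lists: genes within 500 kb of Carmn, other microRNA genes, reported targets of miR-143 and miR-145, and myocardin, serum response factor and their smooth muscle genes. No gene of these lists passed the edgeR threshold in colon or jejunum, and each list is described by its counts and median beside the median over all genes tested (0.00 in colon and 0.02 in jejunum).

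Of the coding neighbours, the nearest on the side of the Carmn start is Il17b, a cytokine gene 19.3 kb away. It was at 0.803, 2.19 and 1.29 CPM in colon iKO and at 0.433, 0.220 and 0.234 CPM in colon WT. In jejunum it stood at 13.2, 5.82 and 14.6 CPM under the iKO label and at 3.28, 1.28 and 1.28 CPM in WT. The groups do not overlap in either tissue, with edgeR log2 differences of 2.25 in colon (SE 0.58, adjusted p = 0.124) and 2.53 in jejunum (SE 0.54, adjusted p = 0.0901) and DESeq2 adjusted p of 0.00763 and 0.000347. Arhgef37, a guanine nucleotide exchange factor gene 113 kb away on the other side, also had groups without overlap (log2 differences 1.68 and 1.38, edgeR adjusted p = 0.124 and 0.203, DESeq2 0.00713 and 0.0494).

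The remaining 8 of the 5 nearest tested genes on either side (Pcyox1l, Grpel2, 1500015A07Rik and Afap1l1 on the side of the Carmn start, Csnk1a1, Ppargc1b, Gm25301 and Pde6a on the other) had log2 differences from -0.93 to 0.25 in colon and -1.02 to 0.45 in jejunum, with adjusted p of at least 0.406. Over the 15 tested neighbours the median was -0.05 in colon and -0.00 in jejunum. In each tissue 7 lay above 0, where 10497 (colon) and 10764 (jejunum) of all 20886 genes did. An unadjusted p under 0.05 was found for 2 neighbours in colon and 3 in jejunum, where 14.5% (colon) and 13.2% (jejunum) of all genes had such a p. Of the 106 other microRNA genes tested, the median was 0.02 in colon and 0.05 in jejunum, 5 and 6 had an unadjusted p under 0.05 (against the same 14.5% and 13.2% of all genes), and DESeq2 called 1 as lower in each tissue, Mirlet7a-1 in colon (adjusted p = 0.0178) and Mir6931 in jejunum (adjusted p = 0.00828), named after their values were seen.

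Of the 20 reported targets of miR-143 and miR-145, which were taken from work on other tissues and cells, 18 lay above 0 in colon (median 0.35) and 13 in jejunum (median 0.19). Of all 20886 genes, 10497 lay above 0 in colon and 10764 in jejunum. In each tissue 5 targets had an unadjusted p under 0.05, where 14.5% and 13.2% of all genes did. Igfbp5, a binding protein of insulin-like growth factors, was at 1743, 1681 and 664 CPM in colon iKO and at 444, 419 and 605 CPM in colon WT (log2 difference 1.48, SE 0.39, edgeR adjusted p = 0.134, DESeq2 0.00843). In jejunum its difference had the other sign (-0.89, adjusted p = 0.351) and its groups overlapped. Ssh2, a cofilin phosphatase reported as a target in vascular muscle, was above WT without overlap in both tissues (0.81 and 0.93, edgeR adjusted p = 0.154 and 0.132, DESeq2 0.0502 and 0.0239). Other targets of small p were Mapk7 (0.52, adjusted p = 0.226) and Fscn1 (1.09, adjusted p = 0.231) in colon, and Fndc3b (0.63, adjusted p = 0.262) and Srgap1 (0.76, adjusted p = 0.345) in jejunum. Klf4 and Klf5, transcription factors often named as miR-143 and miR-145 targets, had overlapping groups in both tissues.

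Of the 18 genes of the myocardin and serum response factor list, 16 lay below 0 in colon (median -0.64) and 9 in jejunum (median 0.03), with 8 and 9 at an unadjusted p under 0.05. Of all 20886 genes, 10389 lay below 0 in colon and 10117 in jejunum, and 14.5% and 13.2% had such a p. The smallest p in both tissues belonged to Hspb6, a small heat shock protein of contractile muscle (log2 difference -1.57 in colon, adjusted p = 0.0568, and -1.17 in jejunum, adjusted p = 0.134). Mylk, the myosin light chain kinase, had differences of -1.23 (adjusted p = 0.115) and -0.98 (adjusted p = 0.198), and groups of both genes do not overlap in either tissue. In colon Myl9 (-1.16, adjusted p = 0.124) and Acta2 (-0.78, adjusted p = 0.177) followed, and in jejunum Acta2 had 0.15. Myocd, the partner of Carmn, had -0.08 in colon and 0.56 in jejunum (adjusted p = 0.926 and 0.374), and Srf had -0.62 and -0.47. Myh11 itself had -0.66 in colon (adjusted p = 0.362) and 0.13 in jejunum (adjusted p = 0.899).

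In nuclei Carmn was lower in the library labelled iKO, the reverse of the group means in tissue, where the colon groups overlapped. The measures are unlike, UMIs of nuclear RNA against read counts of tissue RNA, and need not count the same part of Carmn. After filtering, 2485 WT and 1590 iKO nuclei were kept, with median depths of 1657 and 1984 molecules (unique molecular identifiers, UMIs). Carmn had 5104 UMIs in WT, or 670 CPM (95% exact Poisson interval 652 to 689), and 1342 UMIs in the library labelled iKO, or 220 CPM (209 to 232). A Carmn UMI was found in 37.1% of WT and 26.3% of iKO nuclei, and in 33.3% and 16.8% when nuclei with at least 1000 UMIs were thinned to that number (as the share expected over random draws, 620 WT and 369 iKO nuclei were shallower). Bvht had 11 UMIs in WT and 12 in iKO and was too sparse to assign to cells. At these low counts Bvht was not lower under the iKO label, unlike in bulk colon, and this difference between nuclei and tissue was not tested. The hairpin genes are not among the features of these matrices as used here. With 1 library per genotype there is no test, and all intervals cover counting error only.

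Carmn sat in smooth muscle-like nuclei. Nuclei were clustered without the 4 genes, and 5 of 26 clusters (numbers 0, 2, 6, 13 and 20) were smooth muscle-like by markers. They held 67.6% of the Carmn UMIs in 30.3% of WT nuclei and 69.0% in 25.9% of iKO nuclei. WT levels differed little between them, from 1489 CPM (cluster 20) to 1820 CPM (cluster 6). Clusters 2 and 20 have more markers of another class than of smooth muscle among their leading genes, and cluster 6 holds 180 WT nuclei and 3 iKO nuclei, so the genotypes were compared cluster by cluster.

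In cluster 0, led by Actg2, Smtn and Actn2, Carmn was at 1747 CPM in WT (1653 to 1846) and 731 CPM in iKO (641 to 829), and 86.9% and 69.0% of nuclei held a UMI (78.5% and 46.6% thinned). In cluster 2, led by Igfbp2 and Postn, the levels were 1728 and 627 CPM and the shares 84.8% and 65.1% (77.7% and 41.3% thinned). In cluster 13 they were 1637 and 581 CPM and 90.0% and 73.5% (80.3% and 40.0% thinned). The iKO level was thus 0.418 of WT in cluster 0 (0.363 to 0.480), 0.363 in cluster 2 (0.322 to 0.408), 0.355 in cluster 13 (0.289 to 0.438) and 0.359 in cluster 20 (0.191 to 0.641). Myh11 in the same nuclei was at 0.818, 0.968 and 0.928 of WT in clusters 0, 2 and 13, and Myocd at 0.912, 0.855 and 1.08. Carmn was lower in the iKO library by a larger factor than either.

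The level that remained was above background. Enteric glia-like nuclei, which should lack Carmn, had 55.2 CPM in WT and 61.0 CPM in iKO, and mesothelial-like, epithelial-like and enteric neuron-like nuclei had 44.7 to 52.2 CPM in WT and 3.70 to 40.0 CPM in iKO. In glia-like nuclei 11.4% (WT) and 8.38% (iKO) held a UMI, or 5.98% and 3.53% thinned, at median depths of 1848.5 and 2300.0 UMIs (1796.5 and 2199 in cluster 0). The glia-like level in iKO rests in part on 2 deep nuclei, without which cluster 3, the largest of its clusters, held 15 Carmn UMIs in place of 31. The epithelial-like level in iKO rests on 1 UMI. Thinned Carmn counts (1 random draw) over the 5 smooth muscle-like clusters show the spread among nuclei. Of 619 WT nuclei, 18.9% had 0 UMIs, 30.5% had 1, 24.9% had 2 and 25.7% had 3 or more. Of 352 iKO nuclei, 51.7% had 0, 36.1% had 1, 7.67% had 2 and 4.55% had 3 or more, so Carmn was detected over much of the iKO smooth muscle and few of its nuclei held many molecules.

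Outside smooth muscle the levels varied by cell type. Interstitial cell of Cajal-like nuclei, the pacemaker cells marked by Kit and Ano1, held 386 CPM in WT (282 to 514) and 436 CPM in iKO (318 to 583), a ratio of 1.13 (0.732 to 1.74). Their shares with a UMI were 40.0% of 60 and 51.1% of 45 nuclei (29.5% and 32.8% thinned), and the interval of the ratio lies above those of clusters 0, 2 and 13. In the same nuclei Myh11 was at 1551 CPM in WT and 300 CPM in iKO, and Myocd had 17 UMIs in WT and 1 in iKO. Fibroblast-like nuclei of cluster 10, led by Pdgfra, held 232 and 190 CPM (ratio 0.817, 0.506 to 1.32), with 27.7% and 35.8% of nuclei with a UMI, or 19.4% and 18.2% thinned. The other fibroblast-like cluster, 15, held 163 and 124 CPM. Macrophage-like nuclei held 195 and 109 CPM, with a UMI in 6.67% of 45 and 7.75% of 129 nuclei, shares at or below those of glia-like nuclei. With the 6% highest doublet scores removed from each library, the iKO macrophage-like cluster held 1 Carmn UMI in place of 23.

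A few clusters need separate mention. The unnamed cluster 11, led by Hs3st4 and Grin3a, had 1235 CPM in WT (110 nuclei) and 447 CPM in iKO (20 nuclei), a ratio of 0.362 (0.221 thinned, from 5 iKO UMIs, and 0.258 without the 6% highest doublet scores). Lymphatic endothelial-like nuclei had 833 CPM in WT, but all 76 UMIs came from 5 of 45 nuclei, and 126 CPM (7 UMIs) in iKO. Endothelial-like nuclei had 2 UMIs in WT and 0 in 36 iKO nuclei. The unnamed cluster 21, of 28 WT and 46 iKO nuclei with median depths of 27518 and 12451 UMIs, held 18.0% of all WT Carmn UMIs at 605 CPM, against 144 CPM in iKO. Doublet calling removed 5.84% of WT nuclei and 0.251% of iKO nuclei, a far lower rate in iKO, where doublets may remain, and 3 kept barcodes occur in both libraries.

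**Figure D3:**
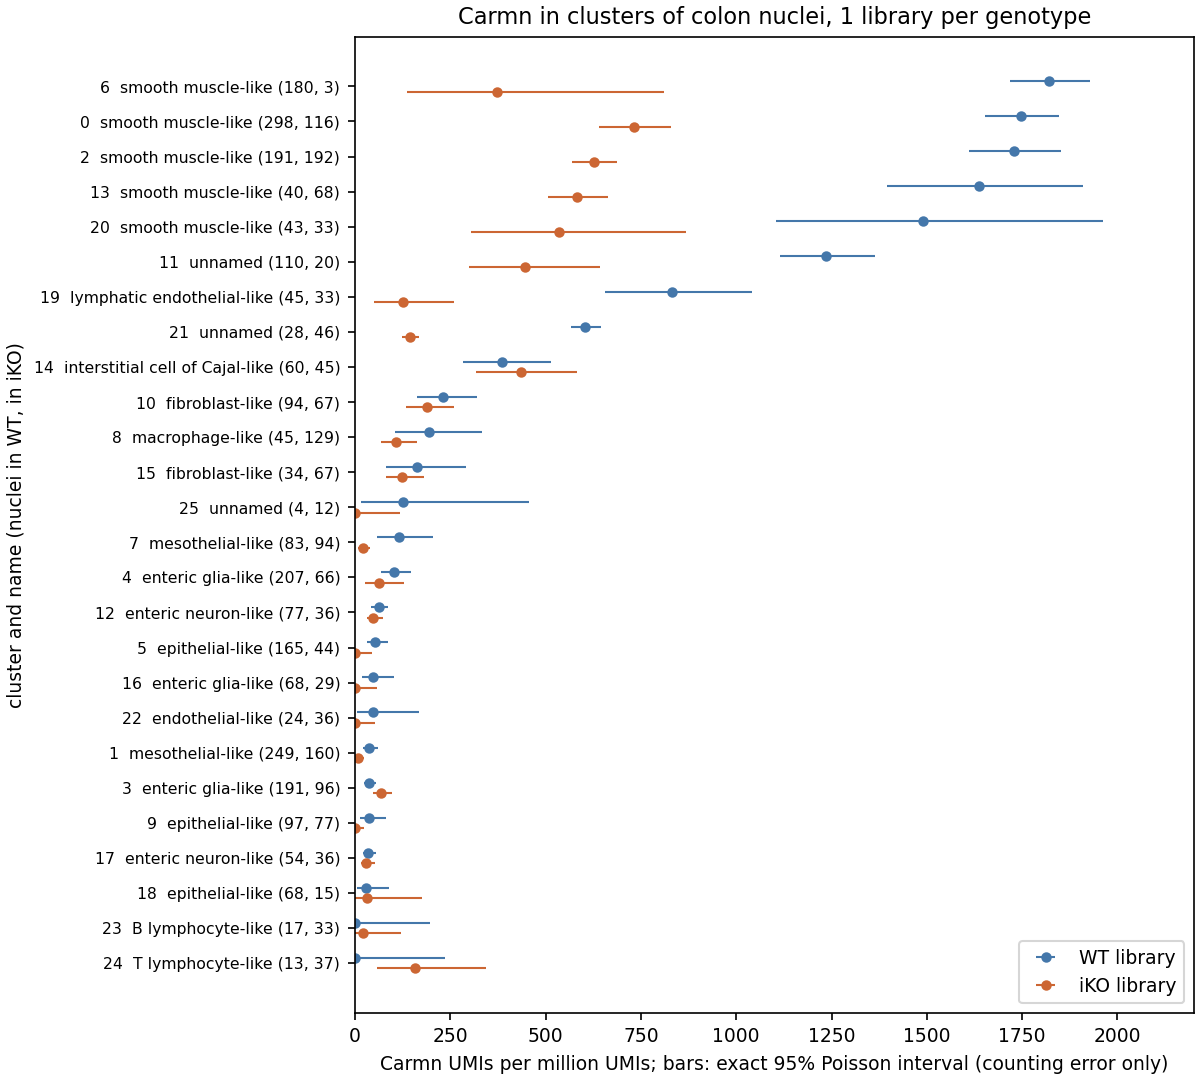
Carmn level in CPM by cluster in the WT and the iKO library, with 95% exact Poisson intervals for counting error, clusters named from markers. The smooth muscle-like clusters stand highest, with iKO levels of 0.355 to 0.418 of WT in clusters 0, 2 and 13, while interstitial cell of Cajal-like nuclei have overlapping intervals.

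The same reading was made without clustering. Nuclei with at least 3 UMIs of 9 smooth muscle markers held 97.3% of WT and 94.0% of iKO Carmn UMIs, at 1011 CPM in 1079 WT nuclei and 325 CPM in 659 iKO nuclei (ratio 0.321, 0.302 to 0.342). At the edge of that rule, 171 WT and 119 iKO nuclei had exactly 2 marker UMIs and 90 and 65 had exactly 3. Nuclei with 0 marker UMIs held Carmn at 48.4 CPM in WT and 31.4 CPM in iKO, levels near those of glia-like nuclei.

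Across all nuclei, Carmn was found more often in nuclei with more Myh11. In WT, a Carmn UMI was found in 7.97% of nuclei with 0 Myh11 UMIs, 10.0% with 1, 27.1% with 2 to 3, 70.6% with 4 to 7 and 89.3% with 8 or more. In iKO the shares were 7.17%, 14.6%, 21.1%, 36.6% and 73.8%. Below 2 Myh11 UMIs the libraries lie close together and near the glia-like share, and they part from 4 Myh11 UMIs upwards. Thinning (1 random draw) kept the parting from 4 Myh11 UMIs upwards (75.4% in WT and 43.3% in iKO at 4 to 7). With 1 Myh11 UMI the thinned shares were 10.7% in WT and 19.5% in iKO, both above the thinned glia-like shares. Their exact binomial intervals overlapped (5.80% to 17.5% in WT and 11.3% to 30.1% in iKO). Between the lowest and highest Myh11 bins the thinned shares went from 5.57% to 81.5% in WT and 4.04% to 52.3% in iKO. The Carmn level in those bins went from 45.7 to 1207 CPM in WT and from 39.9 to 438 CPM in iKO. Of the nuclei with a Carmn UMI, 98 of 921 in WT (10.6%) and 66 of 418 in iKO (15.8%) had no Myh11 UMI.

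Within the smooth muscle-like clusters little of that relation remained once depth was held equal. The rank correlation of Carmn and Myh11 UMIs per nucleus (Spearman, as a description) was 0.62 in WT and 0.58 in iKO as deposited, and 0.04 and 0.12 after that thinning, against 0.70 and 0.50 over all thinned nuclei. In WT the thinned share with Carmn was 67.5% at 2 to 3 Myh11 UMIs (40 nuclei), 78.6% at 4 to 7 (131 nuclei) and 83.2% at 8 or more (435 nuclei). In iKO it was 40.0% (45 nuclei), 46.2% (104 nuclei) and 53.0% (183 nuclei). These shares spanned a narrower range than those over all nuclei. The clusters were named with markers that include Myh11 and hold few nuclei of low Myh11 (5 WT nuclei with 0 UMIs and 8 with 1 after thinning). With that narrow range and few Carmn UMIs per nucleus, a low rank correlation cannot tell whether the 2 genes vary together within smooth muscle.

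Summed by cluster, Carmn per 1000 Myh11 UMIs was 126 in WT and 64.7 in iKO in cluster 0, 212 and 79.5 in cluster 2, and 258 and 98.8 in cluster 13. Over all nuclei it was 163 and 88.1. These 3 clusters had the same order in both libraries. In fibroblast-like cluster 10 the ratio was 837 and 1054, and in interstitial cell of Cajal-like nuclei 249 and 1452, where Myh11 is low in iKO.

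**Figure D4:**
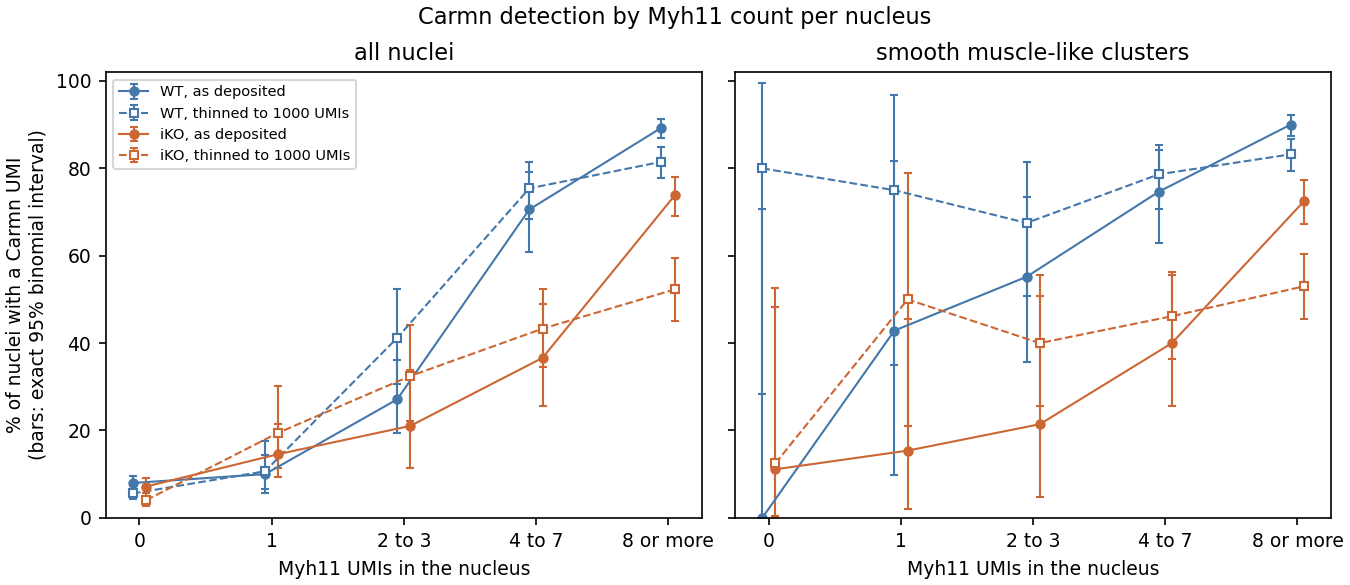
Percent of nuclei with a Carmn UMI by number of Myh11 UMIs in the same nucleus, over all nuclei and over the smooth muscle-like clusters, WT and iKO, as deposited and after thinning to 1000 UMIs, with 95% exact binomial intervals. Over all nuclei the WT and iKO curves lie together at 0 Myh11 UMIs and apart at 8 or more, where 89.3% of WT and 73.8% of iKO nuclei held Carmn.

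Across 21 WT clusters of at least 30 nuclei, the genes whose level was most like that of Carmn (Pearson r of log2(CPM + 10), 8640 genes) were Jph2 (0.97), Myom1 (0.97), Myocd (0.97), Nexn (0.96), Mrvi1 (0.96), Pgm5 (0.96), Tgfb1i1 (0.96), Acta2 (0.96), Smtn (0.95) and Asb2 (0.95). Myh11 was the 11th (0.94). Among them, Myocd encodes myocardin, Acta2 smooth muscle actin and Smtn smoothelin, an actin-associated protein of smooth muscle. Over the 21 iKO clusters of that size the same 10 genes had r of 0.65 to 0.90 with Carmn. The clusters share a library and were made from genes that include these.

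The matrices also hold accessible chromatin regions, called separately in each library as 35003 regions (32.8 Mb) in WT and 26493 regions (25.2 Mb) in iKO. Within 100 kb of Carmn 9 were listed in WT and 10 in iKO, of which 5 overlap between the libraries, where 41.5% of all WT and 54.6% of all iKO regions overlap one of the other library. The region nearest to the Carmn start, about 1 kb upstream, was listed in both (chr18:61666158-61667060 in WT and chr18:61666050-61666838 in iKO, 681 bp shared). Its counts in smooth muscle-like nuclei were 0.483 per 10000 counts over all listed regions in WT and 0.878 per 10000 in iKO, with 1.99% and 4.13% of nuclei holding any.

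A region inside Carmn was listed in iKO alone. It lies at chr18:61653079-61654364, in an intron 66 bp from exon 2 (61654430 to 61654538) and 11.8 kb downstream of the start, and 24 of 412 smooth muscle-like nuclei held a count there (5.83%, 95% exact binomial interval 3.77 to 8.54). Its level was 1.29 per 10000 in those nuclei and 0.761 in the other nuclei. A region 17.3 kb upstream of the start, at chr18:61682219-61683547, was listed in WT alone, with 0.756 per 10000 in smooth muscle-like nuclei (3.06% of 752 nuclei, 1.95 to 4.55) and 0.189 in other WT nuclei (0.866%, 0.485 to 1.42). Another listed in WT alone covers the Il17b start (chr18:61684570-61685682, 0.692 against 0.330 per 10000). No listed region covers Mir143, Mir145a or Bvht. The region nearest to the Bvht start (61639542) lies upstream of it and was listed in both libraries (chr18:61637677-61639055 in WT and chr18:61637579-61638656 in iKO). Its level in smooth muscle-like nuclei was 0.821 per 10000 in WT and 0.955 in iKO. A region listed in 1 library was not counted in the other, so its level there is not known from these files, and with 1 library per genotype no difference was tested.

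**Figure D5:**
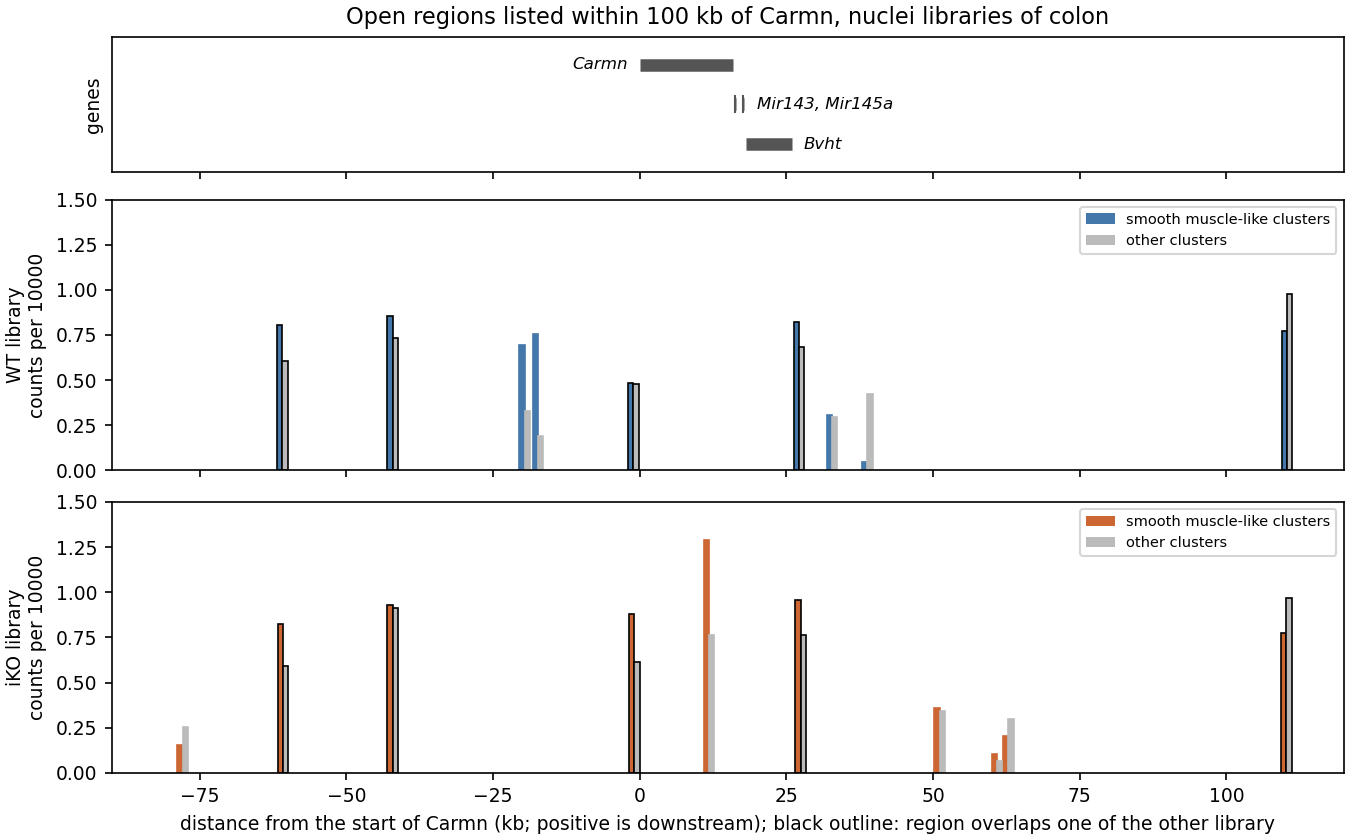
Counts per 10000 counts over all listed regions, in smooth muscle-like (coloured) and other nuclei (grey), for each accessible region listed within 100 kb of Carmn in the WT and the iKO library, against distance from the Carmn start in kb, with the 4 genes drawn to scale above and regions that overlap between libraries outlined. The region inside Carmn is listed in iKO alone and the region 17.3 kb upstream in WT alone, and the region about 1 kb upstream is listed in both.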

How the data were processed

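The authors deposited raw counts per Ensembl gene for the 12 bulk libraries. Per the submitters' processing notes, STAR 2.0.4b, featureCounts 1.4.5 (Subread), edgeR and Cell Ranger were used with GRCm38 (mm10), with settings that the sources used here do not give. Of 40757 entries, 276 exact repeats were dropped, and gene positions came from GENCODE M21. Genes kept by filterByExpr (20886) were fitted with edgeR 4.0.16 (TMM, quasi-likelihood, 4 groups in 1 fit, Benjamini-Hochberg threshold 0.05) in R 4.3.3; limma 3.58.1 (voom), DESeq2 1.42.0, other filters, scalings and left-out libraries served as alternatives. Replicates differed beyond sampling noise (chi-square per gene at least 51.7), so none was counted as a repeat.

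For nuclei the authors deposited matrices of counts per barcode for genes and accessible regions. All gene values were even and were divided by 2 to give UMIs, an inference from the values. Barcodes with at least 500 UMIs, 300 genes and at most 5% mitochondrial UMIs were kept, doublets called with Scrublet (in scanpy) were removed, and nuclei were clustered with scanpy 1.11.5 (2000 genes, 30 components, 15 neighbours, the locus genes left out). A cluster was named from its markers. Barcodes found in both libraries numbered 11 as deposited and 3 as kept.

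The 4 genes and all lists were chosen with earlier results of these data known. Named were the 4 genes, Myh11, the 5 nearest tested neighbours on either side, the genes of highest likeness (5 in bulk, 10 in nuclei) and 4 per list by p, of which 1 is not reported here. The edgeR test of iKO minus WT, in colon and in jejunum, was run on simulated counts first.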

Additional observations from a re-analysis of the deposited data

Results flagged for a closer look

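Carmn in colon nuclei and Carmn in whole jejunum tissue had opposite directions between the labels. The iKO level was 0.418 of WT in smooth muscle-like cluster 0, 0.363 in cluster 2 and 0.355 in cluster 13, while the mean of the 3 jejunum tissue libraries labelled iKO was 3.53 times that of WT. The difference between nuclei and tissue was not tested, the tissues are not the same, and the nuclei have 1 library per genotype. UMIs of nuclear RNA and read counts of tissue RNA are also unlike measures.

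Interstitial cell of Cajal-like nuclei had an iKO level of 1.13 of WT, in contrast to the smooth muscle-like clusters. This difference was not tested over samples.

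The colon and jejunum effects on Cnn1 (calponin) and Actg2 (enteric smooth muscle actin) had opposite signs in edgeR. Cnn1 had a log2 difference of -0.81 in colon and 1.07 in jejunum, and Actg2 had -1.02 and 1.15. The difference of the effects was -1.88 for Cnn1 (SE 0.55, edgeR unadjusted p = 0.00568, adjusted p = 0.941) and -2.17 for Actg2 (SE 0.65, unadjusted p = 0.00616, adjusted p = 0.941), so neither passed over all genes.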

How the results depend on the processing

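Of 762 alternative values over 79 results, 660 counted as unchanged. For the fits of the 4 genes that means the same direction and side of the threshold. For lists it means a count or median near the main one, and for ratios to Myh11 a shift within the spread between libraries. For nuclei and regions it means a value inside the main interval of counting error. The DESeq2 fit put more past the threshold: Mir143 at -2.03 (colon) and -2.54 (jejunum), Mir145a at -2.59 and -2.75, and Carmn in jejunum at 1.82, which limma voom (1.85) and no count filter (1.80) also did. DESeq2 list counts in colon were 1 of 20 (targets of miR-143 and miR-145), 4 of 18 (myocardin and SRF), 2 of 15 (neighbours) and 1 of 106 (other microRNA genes). In jejunum they were 2, 2, 2 and 1. DESeq2 called 5.01% of all genes in colon and 3.95% in jejunum. With no count filter edgeR called 1 gene of the SRF list in colon, where of all 31526 genes it called 27 as higher and 49 as lower. Bvht in colon was -2.86 with the 6 colon libraries alone and no longer passed. The cause of these changes was not tested.

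The near-zero differences between tissues changed sign. Carmn (WT colon minus WT jejunum) was -0.0171 under DESeq2 and RLE size factors, -0.0195 with voom, -0.0519 with no filter, -0.00074 with 1 CPM in every library of a group and -0.0142 with the 6 libraries alone. Bvht was -0.0453 with voom and -0.0108 with no filter, Mir145a -0.0267 with voom, and Bvht between iKO tissues 0.0295 with total counts. With Myh11 in place of library size (chosen after the data had been seen) Carmn was 3.13 times WT in colon.

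The sources used here do not give what the library tags mean, and the main fit did not use them as pairs. Deviations from the group mean had r of -0.261 to 0.124 over the 5 same-tag pairs (1 above 0.1). Pairs of different tags had r of -0.497 to 0.461, a spread too wide to decide on pairing. With the tag as a replicate block in voom, Carmn was 0.90 and 1.82, Bvht -2.78 and -2.73, Mir143 -1.98 and -2.54 and Mir145a -2.54 and -2.87 (colon and jejunum). Against voom without the block, Carmn in jejunum no longer passed (adjusted p = 0.0519 against 0.0465). In edgeR with the block the WT tissue difference was -0.0295 for Carmn and -0.0315 for Bvht, the Carmn difference between iKO tissues was -1.35 (unadjusted p = 0.00316, adjusted p = 0.431) and the Carmn difference of effects -1.32 (unadjusted p = 0.011, adjusted p = 1).

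Leaving out each library in turn gave the following ranges of the log2 difference. For iKO minus WT, Bvht ranged from -3.13 to -2.50 in colon and -2.93 to -2.62 in jejunum, and Carmn in jejunum from 1.67 to 2.01. For the difference of effects, Carmn ranged from -1.22 to -0.56, Bvht from -0.36 to 0.27, Mir143 from -0.0638 to 1.09 and Mir145a from -0.24 to 0.73. Between WT tissues, Carmn ranged from -0.34 to 0.17, Mir143 from 0.32 to 1.23, Bvht from -0.37 to 0.26 and Mir145a from -0.50 to 0.34. Between iKO tissues, Bvht ranged from -0.27 to 0.0938 and Mir145a from -0.18 to 0.73. Medians ranged from 0.21 to 0.38 (targets, colon, lowest without iKO t4), and for other microRNA genes from -0.11 to 0.25 (colon) and -0.26 to 0.41 (jejunum), each highest without the WT library t7 of that tissue. Counts past the threshold ranged from 0 to 2 (SRF list, colon, 2 without the jejunum iKO library m1 and 1 without t4) and 0 to 1 (neighbours, jejunum, 1 without the colon iKO library t4). Over all genes those fits called 60 as higher and 119 as lower of 21639 (colon, without m1) and 15 and 43 of 21574 (colon, without t4). In jejunum without the colon iKO library t4 they were 100 and 72 of 21616.

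In nuclei, the Carmn ratio (iKO over WT) was 0.486 in cluster 0 thinned to 1000 UMIs, 0.321 by markers alone, and 0.368 in the marker set with the 6% highest doublet scores removed from each library, an alternative chosen after the data had been seen. Shares with a Carmn UMI moved with depth. Thinned, as the share expected over random draws, they were 78.5% (WT) and 46.6% (iKO) in cluster 0, 77.7% and 41.3% in cluster 2, and 62.9% and 30.5% in the marker set, with 40.0% in iKO cluster 13 and 32.8% in iKO cluster 14. The single random draw behind the thinned ratio gave 80.6% and 55.3% in cluster 0, 78.8% and 44.8% in cluster 2 and 47.7% in iKO cluster 13. In nuclei of at least 1000 UMIs, WT shares were 91.7% in cluster 0, 90.0% in cluster 2 and 78.5% in the marker set. With no doublet removal the iKO share in cluster 0 was 58.3%; clusters 6 and 20 gave no value there. At 0 Myh11 UMIs the shares were 5.57% (WT) and 4.04% (iKO) thinned and 9.58% (iKO, at least 1000 UMIs), and at 8 or more they were 81.5% and 52.3% thinned and 93.0% (WT, at least 1000 UMIs). Scaled to regions of both libraries, the 5 shared WT regions had 1.12, 1.19, 0.701, 1.24 and 1.17 counts per 10000, and the iKO ones 0.929, 1.15, 1.05, 1.12 and 0.991.

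Depth limits the hairpins (as few as 6 counts) and Bvht in nuclei (11 and 12 UMIs), and 3 libraries per group allow an exact p of 0.1 at best.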
